A study of Mus musculus with 35 samples.

Results

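T cell genes were followed in RNA of whole mouse lung. They are the rows whose gene symbol is Cd3d, Cd3e, Cd3g, Cd4, Cd8a, Cd8b1, Lck, Zap70, Il7r or Ccr7, 10 of the 54532 genes listed, and all 10 were found once. The genes were named by what they do and not by their values. 3 genotypes of both sexes were compared. Control mice were wildtype B6/129SJ2 animals, Cav1-KO mice (listed as Cav1(tm1Mls/)J) lacked caveolin-1 in every cell, and Cav1-RC mice carried the same knockout with Cav1 put back in endothelial cells. The Cav1-RC line came from another laboratory, and the promoter that drives its transgene is not given in the sources used here. All animals were adults of at least 3 months, kept for 6 weeks in room air (normoxia) or at 10% oxygen (hypoxia). Sex, genotype and oxygen gave 12 groups of 3 mice, but only 2 mice were sequenced of the normoxic females of Cav1-KO and of Cav1-RC, which makes 34 libraries. The label of 1 more library marks its group as uncertain, and it entered no comparison.

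A T cell recognises antigen with a receptor whose variable chains carry no signalling tail of their own and depend on the CD3 chains, which Cd3d, Cd3e and Cd3g encode, and on the zeta chain, Cd247. The coreceptor CD4 binds MHC class II, and CD8, built from the products of Cd8a and Cd8b1, binds MHC class I. Lck phosphorylates the CD3 chains, and Zap70 docks on them and carries the signal on. Il7r encodes the receptor subunit through which naive and memory T cells receive the survival signal of interleukin 7, and Ccr7 the chemokine receptor that guides naive and central memory T cells and mature dendritic cells into lymphoid tissue. In lung, T cells sit in the capillaries, the tissue and the lymphoid follicles beside the airways. Several of these genes have other sources as well. Il7r is read in some B cell precursors and innate lymphoid cells, Cd8a and Ccr7 in dendritic cells, and Lck and Zap70 in NK cells. In RNA of whole lung, fewer T cells and less RNA per T cell cannot be told apart.

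The 3 CD3 genes lie together on mouse chromosome 9 (build mm10) in 40056 bases. Cd3g (44969572 to 44980431, minus strand) and Cd3d (44981786 to 44987339, plus strand) are read away from each other from starts 1354 bases apart, and Cd3e (44998740 to 45009627, minus strand) lies 11400 bases beyond the end of Cd3d, tail to tail with it. Because these neighbours gave unequal values, the 250 bases before each gene's RefSeq start are shown (GRCm38.p6), with capitals marking the letters CAGGAA (the core of many ETS factor sites) and CANNTG (the E-box) on either strand. The windows are chr9:44981536-44981785 (plus strand) for Cd3d, chr9:44980432-44980681 (minus strand) for Cd3g and chr9:45009612-45009861 (minus strand) for Cd3e. The gene positions are those of the deposited table, and its start of Cd3e lies inside the RefSeq window.
Cd3d: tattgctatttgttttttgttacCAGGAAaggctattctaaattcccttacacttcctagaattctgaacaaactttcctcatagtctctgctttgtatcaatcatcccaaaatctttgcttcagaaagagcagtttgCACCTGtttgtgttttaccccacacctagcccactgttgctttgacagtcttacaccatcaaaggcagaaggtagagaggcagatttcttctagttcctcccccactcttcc
Cd3g: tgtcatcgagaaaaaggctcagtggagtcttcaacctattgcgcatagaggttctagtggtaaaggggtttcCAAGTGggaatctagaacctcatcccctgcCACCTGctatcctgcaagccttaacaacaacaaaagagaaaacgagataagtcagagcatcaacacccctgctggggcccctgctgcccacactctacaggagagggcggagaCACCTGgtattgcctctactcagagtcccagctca
Cd3e: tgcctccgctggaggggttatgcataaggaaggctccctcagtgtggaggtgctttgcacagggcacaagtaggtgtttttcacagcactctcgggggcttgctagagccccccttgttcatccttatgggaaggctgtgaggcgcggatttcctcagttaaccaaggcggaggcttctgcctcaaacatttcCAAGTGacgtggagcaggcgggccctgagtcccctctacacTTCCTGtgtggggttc
The Cd3d and Cd3e windows each held 1 CAGGAA and 1 E-box, and the Cd3g window held no CAGGAA and 3 E-boxes. TGTGGT, a core of RUNX factor sites, was searched too and was in none of these windows. Of 32851 promoter windows of the same length, 25.7% held CAGGAA, 66.2% an E-box and 14.0% TGTGGT. The Cd3d window had 41.2% G and C, against 51.6% for Cd3g and 57.2% for Cd3e. A match of letters is no evidence of binding.

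The other members lie apart from this cluster, except the pair of CD8 genes. Cd8b1 (chromosome 6, 71322788 to 71337494) and Cd8a (71373427 to 71379173) stand on the plus strand 35932 bases apart, and Cd4 lies on the same chromosome at 124864692 to 124888221 (minus strand). Lck is on chromosome 4 (129548344 to 129573641, minus strand), Zap70 on chromosome 1 (36761798 to 36782818, plus strand), Il7r on chromosome 15 (9505788 to 9530176, minus strand) and Ccr7 on chromosome 11 (99144196 to 99155077, minus strand). Values are counts of read pairs over the exons of each gene. Cd3e shares 135 of its 4080 exonic bases with the antisense gene Gm48719, which had 0 to 7 counts, and Lck shares 25 bases with Mir8119, which had 0 or 1.

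Depth was 12425535 to 33343006 counts per library. 1 count stood for 0.03 CPM (counts scaled to library size) in the deepest library and 0.0805 in the shallowest. Cav1 was at 980 to 1360 CPM in Control, at 1.61 to 3.9 in Cav1-KO and at 1.48 to 6.53 in Cav1-RC, so in Cav1-RC the mouse gene was far below Control and overlapped the knockout's range. 3 libraries labelled male had Xist at 752 to 870 CPM, where no other male library exceeded 4.27, and Ddx3y of the Y chromosome at 0 to 0.389. They are male Cav1-RC normoxia 1 and 2 and male Control hypoxia 2, and they stay in the group of their label unless said. The animal numbers of 12 libraries stand on the study's list of animals for its western blots, and 22 do not. All 6 Cav1-KO hypoxia libraries and all 3 of male Control hypoxia are on this list, as is replicate 1 of the Control females at either oxygen level and of the normoxic Cav1-RC females. In Cav1-KO the oxygen level therefore cannot be told apart from the list, nor can genotype be when Cav1-RC and Cav1-KO are compared in hypoxia, nor can oxygen in Control males or genotype in hypoxic males of Cav1-RC and Control. Within each genotype, the animals on the list have lower animal numbers than the others. Nothing says what else set the animals on the list apart. The replicates are separate mice of 1 study, and p-values measure the spread between them.

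T cell genes were low to moderate in lung, with Ccr7 and Lck ahead in Control normoxia and Zap70 ahead in Cav1-KO hypoxia. In Control normoxia, the mean FPKM (fragments scaled to gene length and library size) was 10.1 for Ccr7, 8.63 for Lck, 6.01 for Il7r, 5.87 for Cd3d and 5.14 for Zap70. It was 3.43 for Cd8b1, 3.41 for Cd3g, 2.98 for Cd8a, 2.82 for Cd4 and 1.47 for Cd3e (n = 6 each). Lck was above Il7r, and Cd4 above Cd3e, in 6 of 6 libraries. The other neighbours in this order changed places between libraries, and Cd8b1 was above Cd3g in only 2 of 6. Cd3e was the lowest of the 10 genes in each of the 6 sets of genotype and oxygen, while the products of Cd3d, Cd3e and Cd3g enter the same receptor. Across the 34 libraries, Cd3e also varied most in proportion, from 0.12 to 1.98 FPKM or 16.5-fold. Cd3d spanned 1.77 to 9.74 (5.5-fold) and Cd3g 0.906 to 4.34 (4.79-fold). Zap70 (2.69 to 6.99, 2.6-fold) and Il7r (2.25 to 7.37, 3.28-fold) varied least. Cd3e rested on 9 to 177 counts per library, the fewest of the 10 genes, so its lowest values carry the most counting error.

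**Figure D1:**
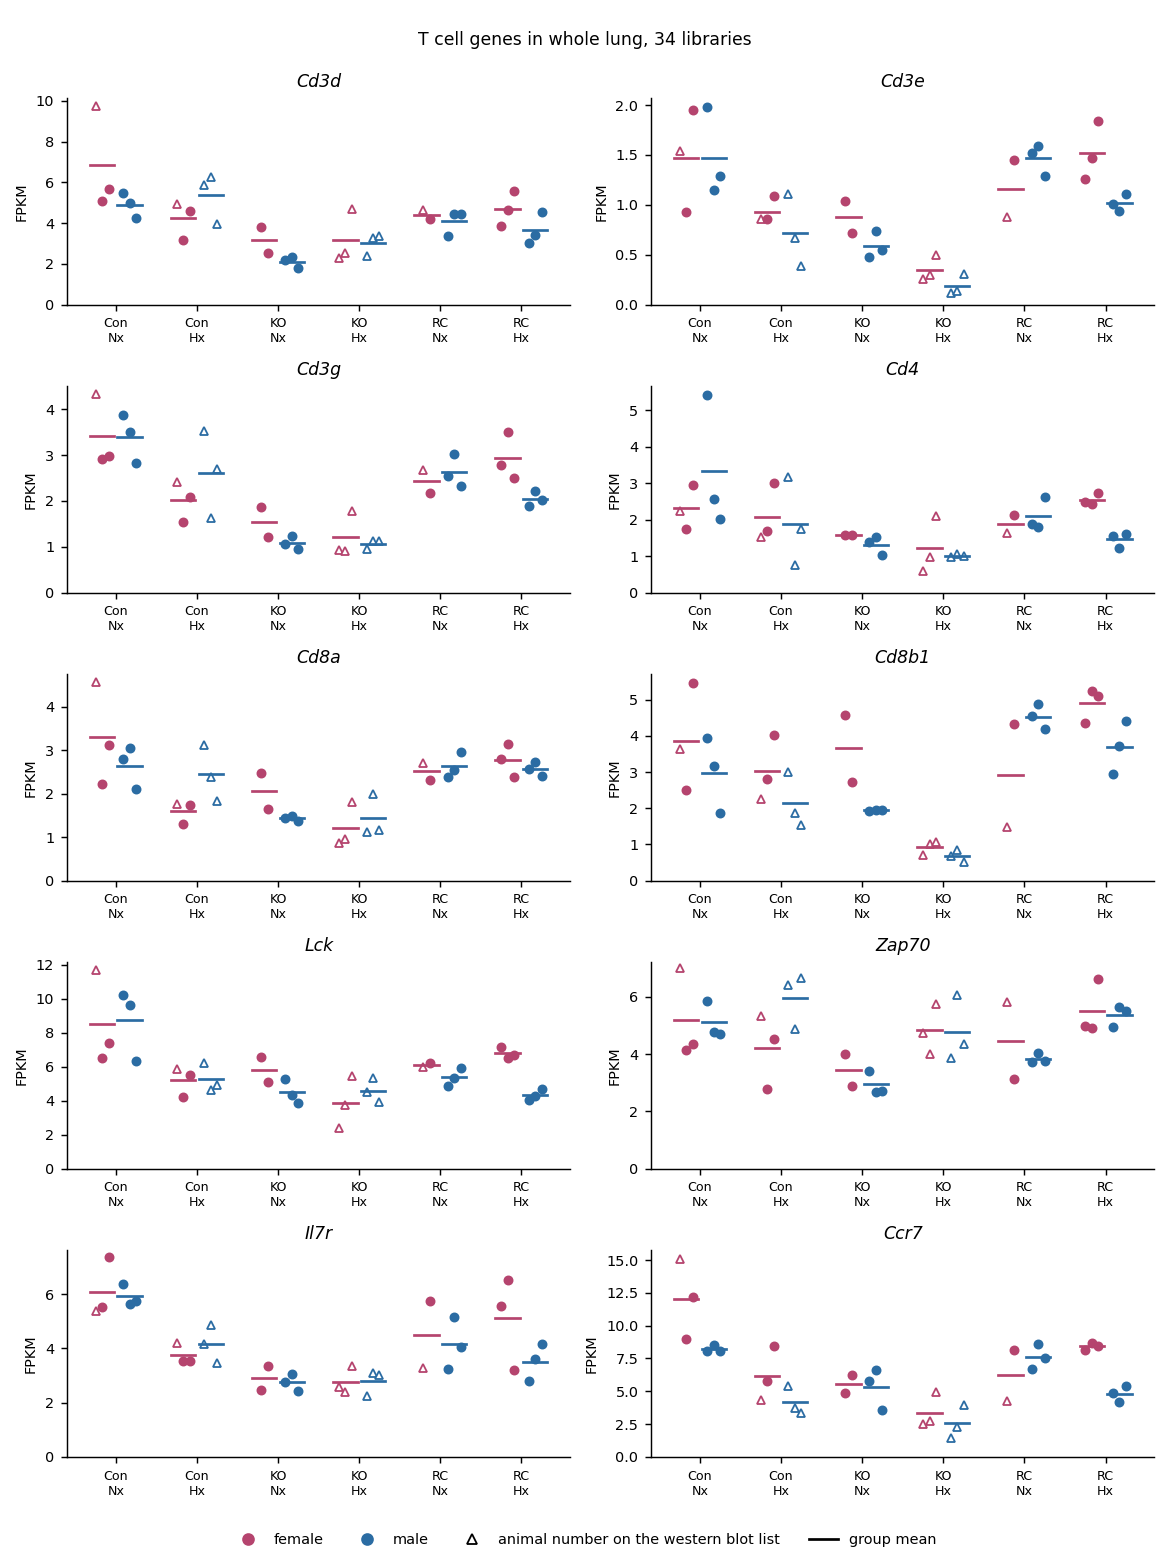
FPKM of the 10 T cell genes (y axes, linear from 0) in each of 34 libraries by genotype and oxygen (x axes; Con Control, Nx normoxia, Hx hypoxia), with females in red, males in blue, horizontal lines for group means and open triangles for animals on the western blot list. The 6 Cav1-KO hypoxia libraries lie below all others for Cd8b1 (0.523 to 1.08) and reach the lowest Cd3e (0.12 to 0.499), while their Zap70 (3.88 to 6.06) lies among the other groups.

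In normoxia, Cav1-KO lungs had less RNA than Control lungs of 9 of the 10 T cell genes at an adjusted p under 0.05, which 13.2% of all genes passed. The comparison asks what the knockout does to the lung before any hypoxia. Over both sexes, Cd3d, Cd3e, Cd3g and Il7r were lower in Cav1-KO than in Control by more than 2-fold and passed the test, which calls a gene at an absolute log2 fold change above 1 with an adjusted p under 0.05 in edgeR's quasi-likelihood test. These 4 of 10 members stand against 5.78% of 18540 genes called. Another test, limma on log2(FPKM + 1), called 0 members here. The median log2 fold change of the members was -0.92 and that of all genes -0.03. The 5 further members Cd4, Cd8a, Lck, Zap70 and Ccr7 were lower by 0.70 to 0.95 on the log2 scale with adjusted p from 0.0106 to 0.0379, which is past the p threshold and short of the fold threshold. Cd8b1, at a log2 fold change of -0.35 ± 0.26 (SE, adjusted p = 0.367), did not pass.

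Among the CD3 genes, Cd3g changed most in normoxia. Its FPKM was 4.34, 2.92 and 2.98 in female and 3.88, 3.5 and 2.84 in male Control mice. It was 1.88 and 1.22 in female and 1.05, 1.24 and 0.95 in male Cav1-KO mice. Each Cav1-KO library was thus below each Control library, with a log2 fold change of -1.40 ± 0.18 (adjusted p = 0.000924), and Cd3g stayed called when each of the 11 libraries was left out in turn. Cd3d gave 9.74, 5.1 and 5.65 FPKM in female and 5.48, 4.98 and 4.23 in male Control mice, and 3.8 and 2.53 in female and 2.17, 2.32 and 1.77 in male Cav1-KO mice. Here too the genotypes did not overlap (-1.18 ± 0.21, adjusted p = 0.00468), although without female Control normoxia replicate 1 the log2 fold change was -0.99 and the call ended. Cd3e fell to 1.03 and 0.722 in female and 0.475, 0.738 and 0.551 in male Cav1-KO mice, from 1.54, 0.928 and 1.95 in female and 1.98, 1.15 and 1.29 in male Control mice. The females overlapped at 1.03, and the log2 fold change of -1.04 ± 0.25 (adjusted p = 0.0204) stayed called in only 5 of the 11 fits without 1 library. It ended without male Control replicate 1, female Control replicate 3, male Cav1-KO replicate 1 or 3, or either female Cav1-KO library, with adjusted p up to 0.111 and log2 fold changes from -1.17 to -0.89.

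Il7r, the interleukin 7 receptor subunit, separated the genotypes in normoxia as sharply as the CD3 genes. It was at 5.4, 5.52 and 7.37 FPKM in female and 6.38, 5.64 and 5.76 in male Control lungs. Cav1-KO lungs gave 2.45 and 3.35 in females and 2.75, 3.04 and 2.45 in males. The highest knockout value was well under the lowest Control value (log2 fold change -1.10 ± 0.13, adjusted p = 0.000533), and the call ended only without female Cav1-KO replicate 1, at -0.98. Ccr7, at 15.1, 8.99 and 12.2 FPKM in female and 8.07, 8.51 and 8.05 in male Control lungs, was at 4.84 and 6.24 in female and 5.75, 6.62 and 3.6 in male Cav1-KO lungs. Its groups did not overlap either, at a log2 fold change of -0.88 ± 0.18 (adjusted p = 0.0106) that stayed under the fold threshold.

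The fold changes of the coreceptors and kinases were under the threshold in normoxia. Cd4 was at 1.74 to 2.94 FPKM in female and 2.02 to 5.42 in male Control lungs and at 1.58 to 1.59 and 1.02 to 1.52 in the knockouts. Its log2 fold change was -0.95 ± 0.26, and 1 male Control library at 5.42 stood well above the others. Cd4 crossed the fold threshold and was called without male Control replicate 2 (-1.03) or 3 (-1.08) or female Control replicate 2 (-1.03). Cd8a was lower by 0.79 ± 0.20, with overlap in females and none in males. Cd8b1 was at 4.58 and 2.73 in female Cav1-KO lungs, within the range of 2.51 to 5.46 of female Control, and at 1.94, 1.96 and 1.95 in male Cav1-KO, within the 1.86 to 3.94 of male Control. Lck was lower by 0.76 ± 0.19 and Zap70 by 0.70 ± 0.17.

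Tested within 1 sex, the normoxic difference was called for 4 members in males (Cd3d, Cd3e, Cd3g and Il7r, against 5.0% of all genes) and for 0 in females (0.122%). In females 4 members had an unadjusted p under 0.05 (11.5% of all genes). The Wald test of DESeq2 called Il7r and Ccr7 there, among 536 genes, where edgeR called 21 genes. The female fold changes of Cd3d (-1.12 ± 0.38), Cd3g (-1.15 ± 0.33) and Il7r (-1.08 ± 0.25) were set beside the male ones (-1.23 ± 0.19, -1.66 ± 0.19 and -1.11 ± 0.12 in this order), and Cd3e was at -0.75 ± 0.40 in females and -1.32 ± 0.28 in males. The female minus male difference was above 0 for 9 of 10 members, with a median of 0.32. It was called for 0 of 10 members and for 0.0% of all genes at an adjusted p under 0.05 in edgeR, and 0 members had an unadjusted p under 0.05 in edgeR or DESeq2.

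In hypoxia, the same comparison of genotypes singled out Cd3e, Cd8b1 and Cd3g. The 3 members were lower in Cav1-KO than in Control lungs over both sexes, against 4.14% of all genes called, and the members' median log2 fold change was -0.72 where that of all genes was 0.01. Cd8b1, one of the pair of CD8 chains, was at 2.25, 2.81 and 4.02 FPKM in female and 2.99, 1.88 and 1.55 in male Control lungs, and at 0.718, 1.03 and 1.08 in female and 0.683, 0.855 and 0.523 in male Cav1-KO lungs. No libraries overlapped (log2 fold change -1.67 ± 0.25, adjusted p = 0.00339). Cd3e was at 0.854, 0.855 and 1.09 in female and 1.11, 0.664 and 0.388 in male Control lungs, and at 0.261, 0.292 and 0.499 in female and 0.12, 0.14 and 0.306 in male Cav1-KO lungs. It was lower in the knockouts within each sex (-1.67 ± 0.33, adjusted p = 0.0114), and both genes stayed called without any 1 of the 12 libraries. Cd3g was lower by 1.03 ± 0.24 (adjusted p = 0.0201), a call that held in 7 of 12 such fits and ended without female or male Control replicate 1, female Cav1-KO replicate 1 or 2 or male Cav1-KO replicate 1.

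Il7r was lower by 0.52 ± 0.13 in hypoxia (adjusted p = 0.0281), short of the fold threshold, and the other 6 members did not pass. Cd3d (-0.63 ± 0.22, adjusted p = 0.0677), Cd8a (-0.60 ± 0.24, 0.1), Cd4 (-0.84 ± 0.36, 0.125) and Ccr7 (-0.80 ± 0.28, 0.0736) had values below 0. Lck (-0.32 ± 0.19) and Zap70 (-0.08 ± 0.18) were nearer to it. Within females and within males 0 members were called (0.768% and 0.929% of all genes), with 3 and 6 members at an unadjusted p under 0.05, where 29.0% and 19.5% of all genes were. DESeq2 called Cd3e and Cd8b1 in females and these with Cd3g in males, among 1530 and 474 genes. The edgeR test called 136 and 165 genes there. The sex difference was called in edgeR for 0 members and 0.0% of all genes, with 0 members at an unadjusted p under 0.05. DESeq2 called 198 genes for it and 0 members, and 1 to 439 genes and 0 members over the 9 comparisons. Without the male Control library whose Xist goes against its label, Cd3e, Cd3g and Cd8b1 were called over both sexes as before, and in males Cd3g (-1.57 ± 0.23) and Cd4 (-1.30 ± 0.27) passed. Among libraries on the western blot list alone, Cd8b1 stayed called (-1.47 ± 0.28, adjusted p = 0.0291) while Cd3e (-1.61 ± 0.39, adjusted p = 0.0666) and Cd3g (-1.17 ± 0.27, 0.0596) did not pass. With the list as a term over all 34 libraries, all 3 were called over both sexes and in males, and in females Cd3g alone was called (-1.02 ± 0.29, adjusted p = 0.0404).

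**Figure D2:**
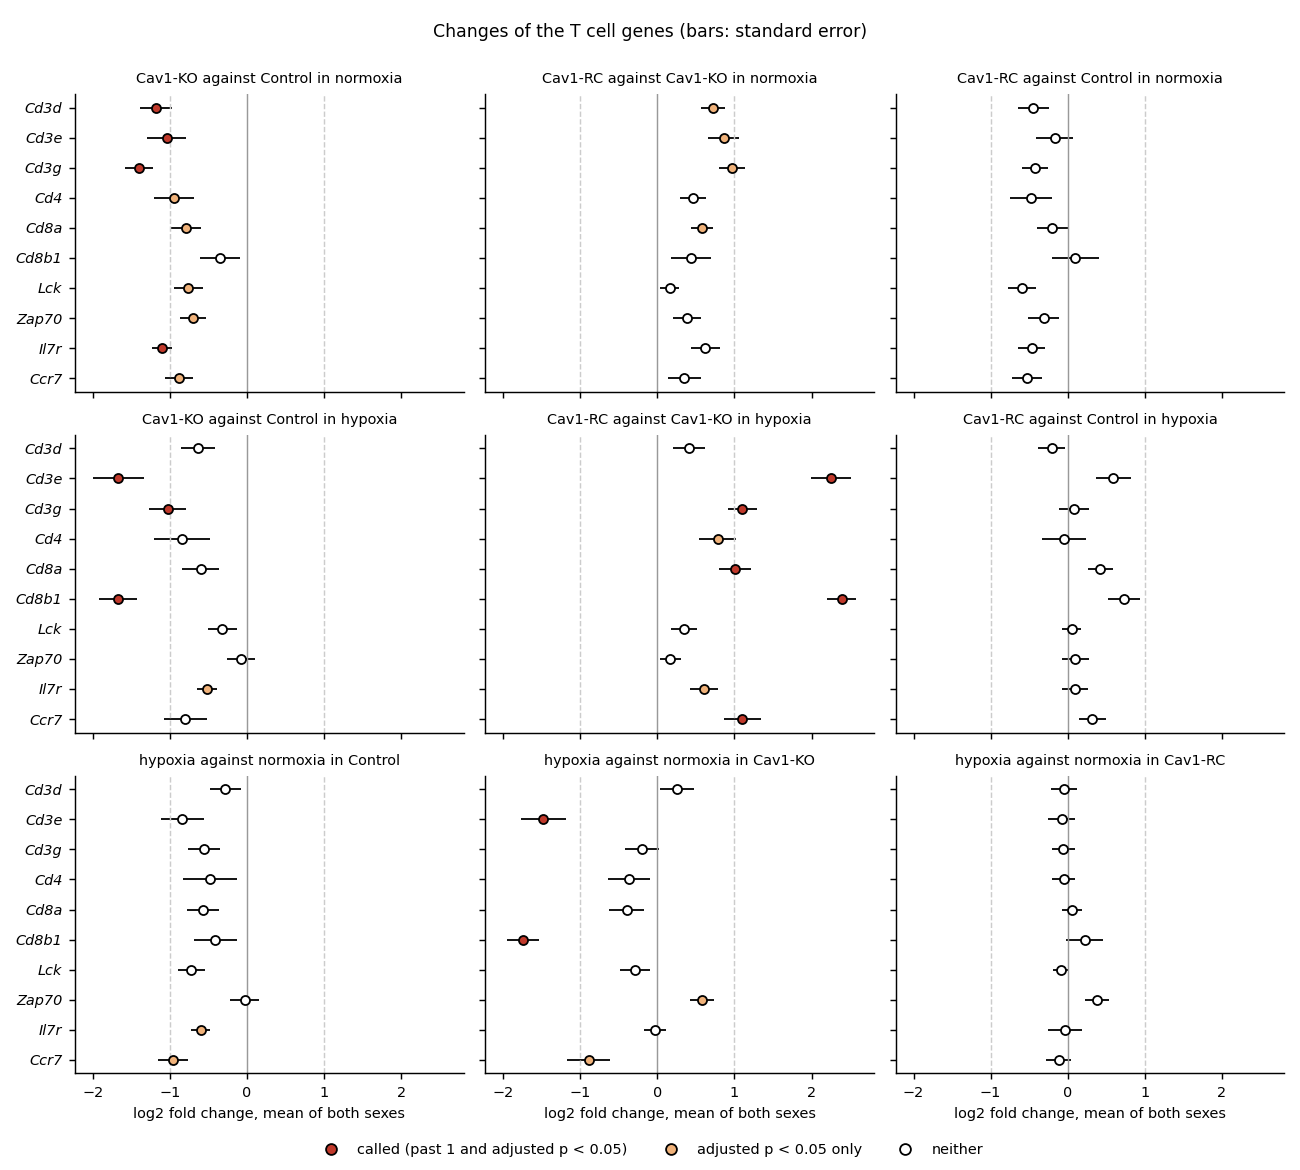
Log2 fold change of each T cell gene (x axes, mean of the female and male fold change, bars for the standard error) in 9 comparisons, with red points for genes called, orange for an adjusted p under 0.05 alone and white for neither. 4 genes are called lower in Cav1-KO in normoxia and 3 in hypoxia, 5 are called higher in Cav1-RC than in Cav1-KO in hypoxia, and Cd3e and Cd8b1 alone are called in hypoxia against normoxia of Cav1-KO.

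Hypoxia against normoxia asks how 6 weeks at 10% oxygen change the lung of each genotype. In Control lungs 0 of 10 members were called over both sexes (0.846% of all genes), 6 had an unadjusted p under 0.05 in edgeR (13.6% of all genes) and also in DESeq2, which called 0 as well. Ccr7 was lower in hypoxia by 0.96 ± 0.19 (adjusted p = 0.0308) and Il7r by 0.60 ± 0.12 (0.0365), both under the fold threshold. Ccr7 crossed it, as the single member, without male Control hypoxia replicate 1 (-1.09), female Control hypoxia replicate 3 (-1.11) or female Control normoxia replicate 2 (-1.04). Each hypoxic Control lung had less Ccr7 (4.34, 5.8 and 8.44 FPKM in females, 5.43, 3.76 and 3.36 in males) than each normoxic lung of its sex. Lck, at -0.72 ± 0.18, did not pass (adjusted p = 0.0848), although its libraries did not overlap within a sex. Without the Control library that Xist contradicts, Ccr7 had an adjusted p of 0.0578 and Il7r one of 0.0285. Within each sex 0 members were called, against 0.0175% of all genes in females and 6.36% in males, and 5 and 4 had an unadjusted p under 0.05 (4.79% and 36.1% of all genes). DESeq2 called none of them in either sex. All 3 hypoxic male Control libraries are on the western blot list and the normoxic ones are not, so oxygen and the list cannot be told apart in these males. With the list as a term Lck was called in them (-1.08 ± 0.29, adjusted p = 0.0415 in edgeR). That term rests on female groups alone, so this call does not separate oxygen from the list in males.

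In Cav1-KO lungs, hypoxia was accompanied by lower Cd3e and Cd8b1 (2 of 10 members, a share near the 17.6% of all genes called). Cd8b1 fell from 4.58 and 2.73 FPKM in female and 1.94, 1.96 and 1.95 in male normoxic lungs to between 0.523 and 1.08 in hypoxia (log2 fold change -1.74 ± 0.21, adjusted p = 2.41e-05). Cd3e fell by 1.48 ± 0.29 (adjusted p = 0.000872), from 1.03 and 0.722 in females and 0.475 to 0.738 in males to 0.12 to 0.499. Both stayed called in each of the 11 fits without 1 library. Among the members, the other chains of the same complexes did not pass. Cd3d was at 2.29, 2.54 and 4.71 in female and 2.38, 3.25 and 3.37 in male hypoxic lungs (0.25 ± 0.22, adjusted p = 0.336), and the log2 fold changes of Cd3g (-0.20 ± 0.22, 0.434) and Cd8a (-0.40 ± 0.23, 0.153) were small beside those of Cd3e and Cd8b1. Zap70 was higher by 0.58 ± 0.16 (adjusted p = 0.00733) and Ccr7 lower by 0.89 ± 0.28 (0.0151), both under the fold threshold.

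Within females Cd3e and Cd8b1 were called (13.3% of all genes), and within males Cd3e, Cd8b1 and Ccr7 (17.7%). All 6 hypoxic Cav1-KO libraries are on the western blot list and all 5 normoxic ones are not. In 1 fit of all 34 libraries with a term for the list, 0 members were called for hypoxia in Cav1-KO, with log2 fold changes of -1.28 ± 0.41 for Cd3e (adjusted p = 0.124) and -1.10 ± 0.37 for Cd8b1 (0.138). No Cav1-KO group holds libraries both on and off the list, so this fit cannot separate oxygen from it. In Cav1-RC lungs 0 members were called over both sexes (1.22%) and 1 had an unadjusted p under 0.05 (15.2% of all genes), as in DESeq2, which called 0. The fold changes lay between -0.12 and 0.38. Within the sexes 0 were called too (0.0285% in females, 2.27% in males, with 0 and 5 members at an unadjusted p under 0.05, and 5.2% and 25.4% of all genes). Zap70 (0.49 ± 0.11, adjusted p = 0.0331) and Ccr7 (-0.65 ± 0.15, 0.0313) passed the p threshold in males. The sex difference of the response to hypoxia was called in edgeR for 0 members and 0.0% of all genes in each genotype. In edgeR 1 member had an unadjusted p under 0.05 in Control (17.6% of all genes), 0 had in Cav1-KO (7.84%) and 3 in Cav1-RC (5.82%). DESeq2 gave 1, 0 and 5 members and called 0.

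Cav1-RC lungs had more RNA of several T cell genes than Cav1-KO lungs. This comparison asks what the return of Cav1 to endothelial cells changes in the knockout. The lines also came from different sources, and this cannot be told apart from the return of Cav1. Mouse Cav1 RNA overlapped between them, while the paper reports caveolin-1 protein as low but detectable in Cav1-RC lungs. In normoxia, 0 members were called between Cav1-RC and Cav1-KO over both sexes (4.28% of all genes), 6 had an unadjusted p under 0.05 (24.4% of all genes) and DESeq2 called 0. Cd3g (0.97 ± 0.17, adjusted p = 0.00628), Cd3e (0.86 ± 0.20, 0.0259), Cd3d (0.72 ± 0.16, 0.0225) and Cd8a (0.58 ± 0.14, 0.0324) were higher in Cav1-RC by the p threshold alone. Cd3g crossed the fold threshold without female Cav1-RC replicate 2, female Cav1-KO replicate 1, male Cav1-KO replicate 2 or male Cav1-RC replicate 3 (1.01 to 1.15), and Cd3e without female Cav1-RC replicate 1 (1.01), the single library of this comparison on the western blot list. Within males Cd3e, Cd3g and Cd8b1 were called (3.59%), and within females 0 (0.1%), where 0 members and 8.73% of all genes had an unadjusted p under 0.05 and DESeq2 called 0.

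The male result in normoxia rests on a group in which 2 of 3 libraries have Xist against their label. Cd8b1 was at 4.54, 4.88 and 4.18 FPKM in these male Cav1-RC lungs, against 1.94, 1.96 and 1.95 in male Cav1-KO, and Cd3e at 1.52, 1.59 and 1.29. The third library alone, with the other 2 left out, kept Cd3e (1.12 ± 0.29), Cd3g (1.11 ± 0.24) and Cd8b1 (1.10 ± 0.24) called and added Cd3d (1.10 ± 0.23), Cd4 (1.00 ± 0.22) and Cd8a (1.05 ± 0.19), with the lone library assumed to vary as the Cav1-KO lungs do. Over both sexes without these libraries, the adjusted p was 0.0688 for Cd3g, 0.0818 for Cd3d and 0.182 for Cd3e. The sex difference was called in edgeR for 0 members and 0.0% of all genes, and 2 members, Cd3e and Cd8b1, had an unadjusted p under 0.05 there, as 7.77% of all genes had (Cd8b1 -1.55 ± 0.53, female minus male, adjusted p = 0.595). Without female Cav1-RC replicate 2 the difference was called for 2 members, with the lone female Cav1-RC library left, the one on the western blot list, assumed to vary as the other groups do.

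In hypoxia, 5 of 10 members were higher in Cav1-RC than in Cav1-KO, namely Cd8b1, Cd3e, Cd3g, Ccr7 and Cd8a, against 14.7% of all genes. The members' median log2 fold change was 0.89, with 0.0 for all genes. Cd8b1 was at 4.35, 5.24 and 5.09 FPKM in female and 2.93, 3.72 and 4.42 in male Cav1-RC lungs, a log2 fold change of 2.39 ± 0.19 over the 0.523 to 1.08 of Cav1-KO (adjusted p = 3.67e-06). Cd3e was at 1.26, 1.47 and 1.84 in females and 1.01, 0.934 and 1.11 in males (2.25 ± 0.26, adjusted p = 3.44e-05). Neither gene had any overlap between the genotypes. Cd3g (1.10 ± 0.19, adjusted p = 0.000491), Ccr7 (1.10 ± 0.24, 0.00202) and Cd8a (1.01 ± 0.21, 0.00155) rose about 2-fold and did not overlap within a sex. Without male Cav1-KO hypoxia replicate 1 the count was 3, since Cd8a (0.93) and Ccr7 (0.94) then missed the fold threshold. Cd8a also ended without female Cav1-RC replicate 2, female Cav1-KO replicate 1 or 2 or male Cav1-KO replicate 3. Cd4 (0.78 ± 0.24, adjusted p = 0.0166) and Il7r (0.60 ± 0.18, 0.0134) passed the p threshold alone. Cd3d (0.41 ± 0.21), Lck (0.35 ± 0.17) and Zap70 (0.17 ± 0.14) did not pass.

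Within females Cd3e, Cd3g, Cd8a, Cd8b1 and Ccr7 were called (8.98% of all genes) and within males Cd3e and Cd8b1 (14.8%), and the difference between the sexes was called in edgeR for 0 members and 0.0% of all genes, with Lck alone at an unadjusted p under 0.05 (4.15% of all genes, 0.87 ± 0.34, adjusted p = 1.0). Every Cav1-KO library of this comparison is on the western blot list and no Cav1-RC library is. With the list as a term over all 34 libraries, Cd3e (2.04 ± 0.40), Cd3g (1.55 ± 0.28), Cd8a (1.45 ± 0.29) and Cd8b1 (1.75 ± 0.36) were called, and Ccr7 was not (0.83 ± 0.35, adjusted p = 0.147). That term rests on female Control and Cav1-RC groups, so this fit cannot separate genotype from the list here.

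Between Cav1-RC and Control lungs none of these genes passed the test. In normoxia the members' median log2 fold change over both sexes was -0.44, with 9 of 10 below 0. In hypoxia it was 0.45 in females, with 0 of 10 below 0, and -0.22 in males, with 6 of 10 below 0. The medians of all genes were -0.01, -0.02 and -0.02 in this order. In normoxia 0 of 10 members were called over both sexes (2.28% of all genes), 0 in females (0.137%) and 0 in males (2.45%), with 5, 1 and 3 members at an unadjusted p under 0.05 (13.1%, 4.18% and 23.1% of all genes). Lck, at 5.97 and 6.24 FPKM in female and 4.88, 5.36 and 5.94 in male Cav1-RC lungs, was below each Control lung of its sex and did not pass (-0.59 ± 0.18, adjusted p = 0.149). In hypoxia 0 were called over both sexes (3.73%), 0 in females (0.832%) and 0 in males (9.9%), with 3, 3 and 2 at an unadjusted p under 0.05 (28.2%, 8.43% and 47.4% of all genes). DESeq2 called 0 members in all 6 of these comparisons. Cd8b1 (0.73 ± 0.21, adjusted p = 0.051) and Cd3e (0.59 ± 0.23, 0.125) had the largest values. The female minus male difference was called in edgeR for 0 members and 0.0% of all genes at both oxygen levels. 1 member in normoxia and 3 in hypoxia had an unadjusted p under 0.05 there (3.14% and 18.5% of all genes). A p that misses the threshold does not show equal levels.

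Ratios of 2 pairs of members within a library were compared, Cd8b1 to Cd4 and Ccr7 to Cd3e, both chosen with earlier results of these data known. The log2 ratio of Cd8b1 to Cd4 (FPKM), a balance of the coreceptor transcripts, was 0.82 ± 0.46 (SD, n = 5) in Cav1-KO normoxia and -0.40 ± 0.50 (n = 6) in Cav1-KO hypoxia. The mean difference over the sexes was -1.28 (adjusted p = 0.018, exact permutation of libraries within sex, two-sided, adjusted over 18 ratio tests). In hypoxia the ratio was lower in Cav1-KO than in Control by 0.86 (adjusted p = 0.018, exact permutation) and higher in Cav1-RC than in Cav1-KO by 1.53 (adjusted p = 0.018, exact permutation). The unadjusted p was 0.005 in all 3, the smallest these permutations can give. The call against Control was lost without female Control hypoxia replicate 2 or male Cav1-KO hypoxia replicate 1 or 3. That for hypoxia in Cav1-KO was lost without female Cav1-KO normoxia replicate 1. The log2 ratio of Ccr7 to Cd3e was 3.51 ± 0.32 in Cav1-KO hypoxia, against 2.66 ± 0.34 in Control hypoxia (difference 0.85) and 2.36 ± 0.21 in Cav1-RC hypoxia (difference -1.15 for Cav1-RC against Cav1-KO), each with an adjusted p of 0.018 by exact permutation. It was also 0.60 higher than in Cav1-KO normoxia (adjusted p = 0.03, exact permutation), a call that was lost in 9 of 11 tests without 1 library (0.38 to 0.82). The other 12 ratio tests did not pass.

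The differences changed with the chain that stood for the complex. With Cd8a in place of Cd8b1, the 3 differences from Cd4 were 0.15, 0.20 and 0.02, in the order Cav1-KO against Control, Cav1-RC against Cav1-KO and hypoxia against normoxia in Cav1-KO. With the mean of the 3 CD3 genes in place of Cd3e, the differences of Ccr7 were -0.01, 0.37 and -0.90. Cd8b1 to Cd8a and Cd3e to Cd3d, ratios of chains of 1 protein complex, were low in many of the same libraries. The log2 ratio of Cd3e to Cd3d was -4.54 to -2.40 (median -3.18) in the 12 libraries on the western blot list and -2.46 to -1.15 (median -1.70) in the 22 others. That of Cd8b1 to Cd8a was -1.23 to 0.35 (median -0.34) on the list and -0.17 to 1.20 (median 0.68) off it. For the zeta chain, the log2 ratio of Cd247 to Cd3d was -3.36 to -2.36 on the list and -2.12 to -0.21 off it, with no overlap. The ratio of Zap70 to Lck was -0.74 to 0.99 (median 0.07) on the list and -1.01 to 0.39 (median -0.57) off it. These ratios were chosen after the data were seen and carry no test. Oxygen and genotype differ between the libraries on and off the list, and what part the list has in the ratios was not tested.

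**Figure D3:**
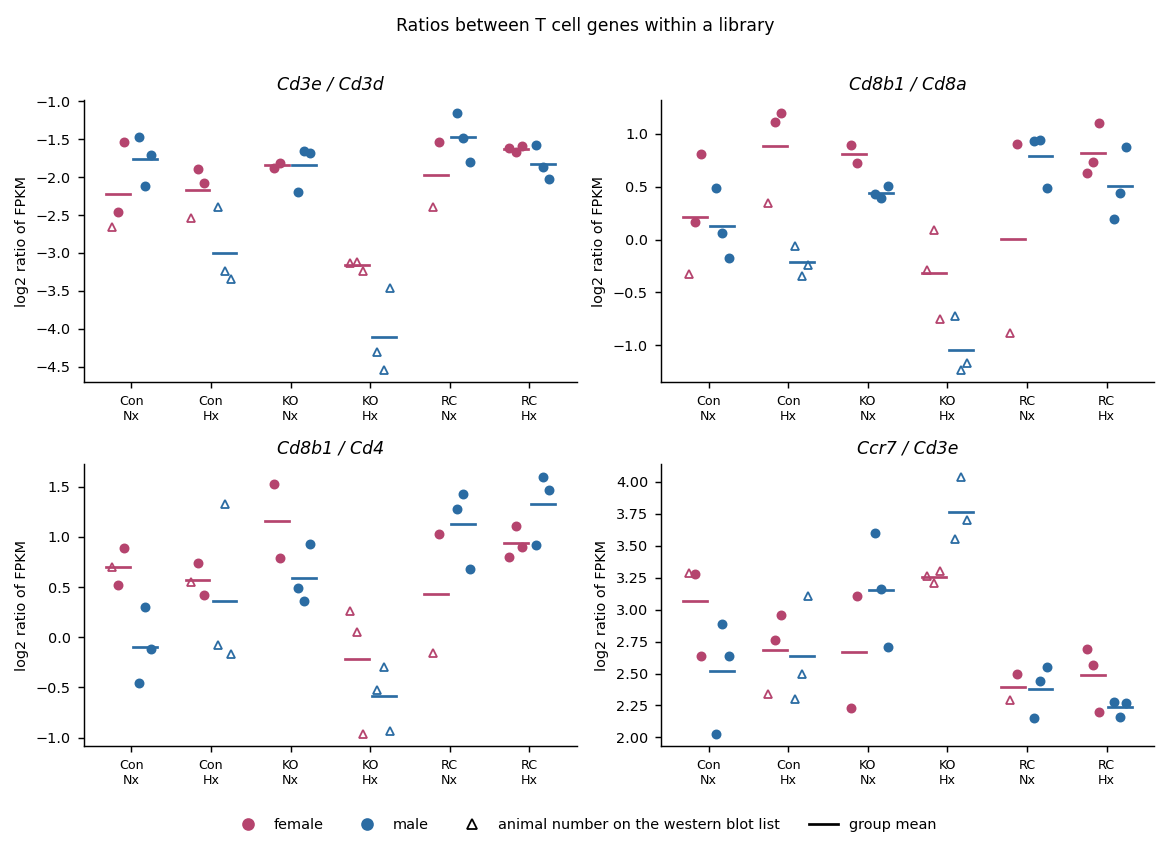
Log2 ratios of FPKM within each library (y axes) by genotype and oxygen (x axes; Con Control, Nx normoxia, Hx hypoxia), with females in red, males in blue, lines for group means and open triangles for animals on the western blot list. Cd3e to Cd3d is -4.54 to -2.40 in the 12 triangles, also in Control and Cav1-RC groups, and at or above -2.46 in the other 22 libraries.

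The term for the list in the fit of all 34 libraries separates libraries of 1 group, and it rests on 3 groups that hold both kinds. All 3 are female groups of Control or Cav1-RC with 1 listed library each. Where the list cannot be told apart from oxygen or genotype, the fit carries the shift of these groups over. 0 of 10 members were called for it, against 13.5% of 19870 genes. Zap70 was higher on the list by 0.72 ± 0.17 (adjusted p = 0.00122), and Cd3d (0.51 ± 0.22, 0.0613) and Cd8b1 (-0.64 ± 0.28, 0.0678) did not pass. In these groups the listed library stood apart in places. In female Control normoxia it had the most Cd3d (9.74 FPKM, the others 5.1 and 5.65) and Zap70 (6.99, the others 4.16 and 4.37), but not the most Cd8b1 (3.63, the others 2.51 and 5.46). In female Cav1-RC normoxia it had 1.48 of Cd8b1 and 5.8 of Zap70, where the other library had 4.33 and 3.13.

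Further genes of T cells, 42 of them in 5 roles, all passed the filter. In Cav1-KO against Control in normoxia 5 were lower and 0 higher (11.9%, against 5.78% of all genes), the median log2 fold change was -0.51 and 39 of 42 lay below 0, where the median of all genes was -0.03. The 5 were the adaptor Lat (-1.13 ± 0.20), the receptor chain Trbc2 (-1.23 ± 0.23), Trat1, which stabilises the receptor (-1.43 ± 0.28), and, named after their values were seen, Ctla4 (-1.65 ± 0.34) and Cd6 (-1.19 ± 0.26). Of the 8 transcription factors in the list 0 were called there. In hypoxia 5 were lower (11.9%, against 4.14% of all genes, median -0.41), with Itgae, the integrin of epithelial T cells (-1.74 ± 0.23), Cd247 (-1.21 ± 0.27) and the receptor chain Trac (-1.62 ± 0.38), and also, named in the same way, Cd5 (-1.44 ± 0.40) and Cd6 (-1.48 ± 0.41). Between Cav1-RC and Cav1-KO, 2 were higher in normoxia, Trac (1.15 ± 0.17) and the chemokine receptor Ccr4 (1.57 ± 0.31), a share of 4.76% that is near the 4.28% of all genes. In hypoxia 15 were higher (35.7%, against 14.7% of all genes, median 0.57). The 15 included Itgae (1.64 ± 0.18), Trac (2.25 ± 0.29) and the interleukin 2 receptor subunit Il2rb (1.26 ± 0.17), and 5 of them were costimulatory or adhesion genes and 5 cytokine receptor or homing genes.

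Between hypoxia and normoxia of Cav1-KO, 8 of the 42 were lower (19.0%), a share near the 17.6% of all genes, and oxygen and the western blot list cannot be told apart there. The 8 included Cd247 (-2.16 ± 0.24), Itgae (-1.92 ± 0.19) and Il2rb (-1.49 ± 0.16). In Control Cd247 alone was lower in hypoxia (-1.02 ± 0.18, where 0.846% of all genes were called), and 0 were called in Cav1-RC (1.22%). Between Cav1-RC and Control 0 were called in normoxia (2.28%), and the gut homing receptor Ccr9 alone in hypoxia (1.06 ± 0.28, with 3.73% of all genes called). The chains of the T cell receptor itself also gave unequal values. In Cav1-KO against Control in hypoxia Trac was lower, and its partner chains, chosen after their values were seen, Trbc1 (0.06 ± 0.21, adjusted p = 0.866) and Trbc2 (-0.45 ± 0.22, 0.16) did not pass. For the list term 3 of 42 were called, a smaller share than the 13.5% of all genes, with Trbc1 (1.05 ± 0.16), Trdc (1.02 ± 0.26) and Tnfrsf4 (1.87 ± 0.33) higher on the list.

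**Figure D4:**
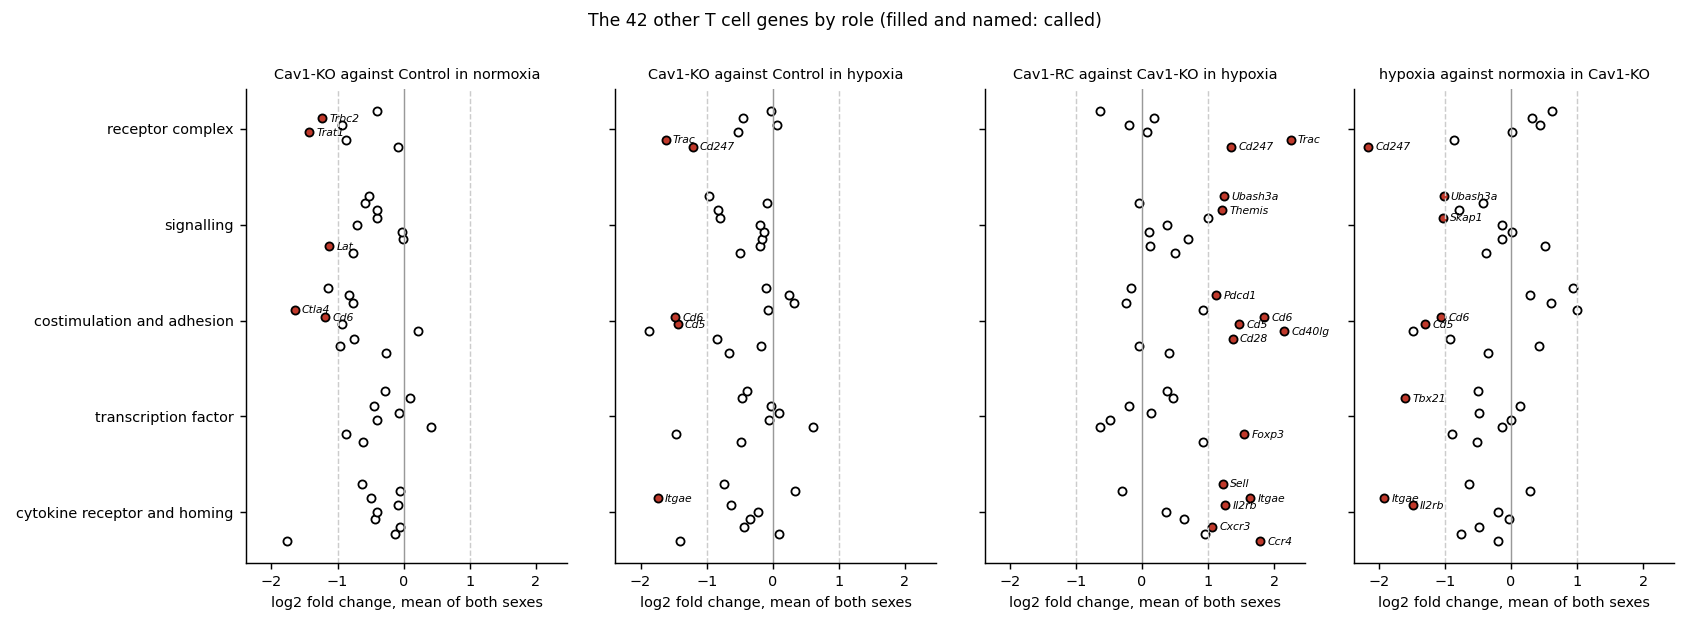
Log2 fold change (x axes, mean of both sexes) of 42 further T cell genes by role (y axis) in 4 comparisons, with genes called filled in red and named. Called genes lie below -1 in Cav1-KO against Control, 5 in normoxia and 5 in hypoxia, and 8 do so in hypoxia against normoxia of Cav1-KO, while 15 lie above 1 in Cav1-RC against Cav1-KO in hypoxia, spread over all 5 roles.

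Of the 12 rows for 10 ligand genes of the members, 9 or 10 passed the filter. B2m, the light chain of MHC class I, was the single ligand called in the 9 comparisons, higher in Cav1-RC than in Cav1-KO in hypoxia (1.10 ± 0.16, adjusted p = 0.000139), and this 1 of 9 rows (11.1%) is below the 14.7% of all genes. By the p threshold alone B2m was also lower in Cav1-KO hypoxia than in Cav1-KO normoxia (-0.98 ± 0.14, adjusted p = 9.22e-05) and than in Control hypoxia (-0.62 ± 0.19, 0.0462). Il7 (-0.18 ± 0.15 in normoxia and -0.33 ± 0.17 in hypoxia, Cav1-KO against Control) did not pass in any of the 9 comparisons, while its receptor was called in normoxia. Tslp, the other ligand of Il7r, passed the p threshold in Cav1-RC against Cav1-KO in hypoxia alone (-0.89 ± 0.24, adjusted p = 0.00743), where Il7r was 0.60 ± 0.18. The MHC class II genes H2-Aa, H2-Ab1 and H2-Eb1, ligands of CD4, had log2 fold changes of -0.09, -0.11 and -0.10 in Cav1-KO against Control in normoxia, and the class I genes H2-K1 and H2-D1 were at -0.20 and 0.06. In other comparisons these genes passed the p threshold and not the fold threshold 4 times. H2-D1 was higher in Cav1-RC than in Cav1-KO in hypoxia (0.55 ± 0.14, adjusted p = 0.0061) and H2-Ab1 lower in normoxia (-0.37 ± 0.10, 0.0448). Between hypoxia and normoxia of Cav1-KO, H2-K1 was higher (0.48 ± 0.19, adjusted p = 0.0408) and H2-Ab1 lower (-0.31 ± 0.09, 0.0104). Of the ligands of Ccr7, Ccl19 did not pass the filter, and Ccl21a is listed under 2 identifiers between which reads may be shared, so its values are uncertain. Neither row of Ccl21a passed in any comparison where it was tested, and for the list term the row ENSMUSG00000094686 was called higher on the list (3.24 ± 0.79, adjusted p = 0.00169).

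Markers of other cells moved with the T cell genes in part. The summed level of 10 B cell markers was 87.1 to 277 CPM in Control and 68.8 to 105 in Cav1-KO normoxia, where 4 of 10 were lower (5.78% of all genes called), among them Cxcr5 (-1.13 ± 0.26) and Pax5 (-1.51 ± 0.40). In hypoxia 1 of 10 was lower in Cav1-KO than in Control (4.14% of all genes called), with a median of -0.69 and 10 of 10 below 0. In Cav1-RC against Cav1-KO, 6 of 10 B cell markers were higher in normoxia (4.28% of all genes called) and 7 in hypoxia (14.7%), with Ms4a1 at 1.86 ± 0.22 in the latter. Cxcr5 is also read in follicular helper T cells. Of 4 markers of lymphoid stroma, 2 or 3 passed the filter and 0 were called in Cav1-KO against Control. Chst4, of the vessels through which lymphocytes enter lymphoid tissue, was higher in Cav1-RC than in Cav1-KO in both conditions (1.43 ± 0.27 and 3.44 ± 0.29, with 4.28% and 14.7% of all genes called), and Cxcl13 was so in hypoxia (1.05 ± 0.25). Against Control too, where no T cell gene of the 10 passed, Chst4 was higher in Cav1-RC in normoxia (2.52 ± 0.32, 2.28% of all genes called) and in hypoxia (3.15 ± 0.44, 3.73%), as was Cxcl13 in hypoxia (1.25 ± 0.29). The summed level of that list was 2.62 to 12.2 CPM in Cav1-KO hypoxia and 17.9 to 34.3 in Cav1-RC hypoxia. The part of lymphoid follicles in the T cell values was not tested.

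NK cell markers, which share Lck and Zap70 with T cells, had a median log2 fold change of -0.41 in Cav1-KO against Control in normoxia with 0 of 10 called, and 2 of 10 were lower in Cav1-RC than in Cav1-KO in hypoxia (14.7% of all genes called, Ncr1 -1.09 ± 0.22, Klre1 -1.10 ± 0.26). Between hypoxia and normoxia, 2 of 10 were lower in Control (0.846% of all genes called), 3 of 10 in Cav1-KO (17.6%) and 3 of 10 in Cav1-RC (1.22%). Of 8 dendritic cell markers, which share Ccr7 and Cd8a, 0 were called in Cav1-KO against Control in normoxia and 1 in hypoxia (Ccl22, -1.64 ± 0.35, with 4.14% of all genes called). Between hypoxia and normoxia of Cav1-KO, where Ccr7 was lower by the p threshold, 3 of 8 were lower (37.5%, against 17.6% of all genes, median -0.86), among them Flt3 (-1.03 ± 0.22) and Xcr1 (-1.19 ± 0.27). The summed level of the list was 178 to 213 CPM in Cav1-KO normoxia and 157 to 201 in Cav1-KO hypoxia. The leukocyte gene Ptprc was at 90.0 to 217 CPM in all libraries. Of 5 pan-leukocyte genes 0 were called in Cav1-KO against Control in normoxia (median -0.16), and Itgb2 alone in hypoxia (-1.11 ± 0.33, 4.14%) and in Cav1-RC against Cav1-KO in hypoxia (1.46 ± 0.19, 14.7%). Of 6 erythroid genes 5 were higher in Cav1-KO than in Control in hypoxia (4.14% of all genes called), and their sum was 1600 to 20700 CPM in Cav1-KO hypoxia and 173 to 4620 in Control hypoxia. Where Cd3e and Cd8b1 were called, 5 of the 6 were higher in hypoxia than in normoxia of Cav1-KO (17.6% of all genes called, median 2.42), and 4 were lower in Cav1-RC than in Cav1-KO in hypoxia (14.7%, median -1.98). Of 5 neutrophil markers 4 were higher in Cav1-RC than in Cav1-KO in hypoxia (14.7%) and 0 were called between Cav1-KO and Control. Also, 4 were higher in Cav1-RC than in Control in normoxia (2.28%) and in hypoxia (3.73%), and 3 in hypoxia than in normoxia of each genotype (0.846% of all genes for Control, 17.6% for Cav1-KO, 1.22% for Cav1-RC). Of 7 macrophage markers and of the 3 tested of 5 markers of type 2 innate lymphoid cells, 0 were called between Cav1-KO and Control at either oxygen level. Of 9 genes of lung tissue itself, Foxj1 (-1.13 ± 0.15) and Scgb1a1 (-1.27 ± 0.29), of ciliated and club cells, were lower in Cav1-KO than in Control in normoxia (5.78% of all genes called) and 0 were called in hypoxia (4.14%). For hypoxia against normoxia of Cav1-KO 3 of these 9 were called, 2 higher and 1 lower (33.3%, against 17.6% of all genes). The thymocyte markers Rag1, Rag2, Dntt and Ptcra summed to 0 to 0.621 CPM, so the defining markers of thymus were at or near 0. The part of these cells in the T cell values was not tested further.

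Genes most like the CD3 genes were sought among 16014 genes with a mean of at least 1 CPM, by Pearson r of log2 CPM with the mean of Cd3d, Cd3e and Cd3g over 34 libraries. Among the first 10 were Itgb7 (0.911), Ptprcap (0.873), Tlr1 (0.865), P2ry10 (0.863), Sh2d2a (0.85), Cd6 (0.845), Epsti1 (0.842), Fam169b (0.83) and Trac (0.826). Cd6 and Trac alone of these are on the T cell lists. The libraries share genotype, oxygen and the list, and after the group means were taken out r was 0.374 to 0.756. Among the members, Cd3e was closest to Cd8b1 (r = 0.90) and Cd3d to Cd3g (0.83), over 34 libraries. Off the list the closest to Cd3e were Cd3d and Cd3g (0.85 each, Cd8b1 0.77), on it Cd3d, Cd3g and Ccr7 (0.88 each, Cd8b1 0.87), and after the group means were taken out Ccr7 (0.71, Cd8b1 0.58). Zap70 stood apart from Cd8b1 (0.0), Ccr7 (0.02) and Cd3e (0.09). Over the 22 libraries off the list, Zap70 had an r of 0.59 with Cd3e, 0.50 with Cd8b1 and 0.25 with Ccr7, and over the 12 on it 0.60, 0.68 and 0.66. After the group means were taken out these were 0.10, -0.02 and 0.05. These values are descriptions with no test.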

How the data were processed

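Whole-lung RNA of 35 mice was sequenced as stranded paired-end libraries. The authors aligned reads to mm10 with HISAT2 2.0.5 and counted fragments per gene with featureCounts 1.5.0-p3 (submitters' processing notes and methods), and the deposited counts are raw whole numbers. The FPKM values were deposited by the authors from these counts and gene lengths. All 35 labels carry the same batch date, and 0 value columns were left unused. Library names differ in form. Both of female Cav1-KO normoxia carry a suffix, as does a library each of male Cav1-KO and male Cav1-RC normoxia. That of female Control normoxia replicate 1 has a prefix of its own. What these marks mean is not given. Depth was 12425535 to 33343006 counts per library (median 18015172.5), and it sets the precision of low genes such as Cd3e.

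Groups came from the labels. Counts were tested in R 4.3.3 with edgeR 4.0.16 (TMM scaling, filterByExpr, quasi-likelihood test, Benjamini-Hochberg over all genes tested) in 18 pairwise comparisons, 1 for each sex, and in 9 comparisons over both sexes, as the mean of the female and male effect and as their difference. Calls needed an adjusted p under 0.05 together with a log2 fold change above 1 or below -1, and for a sex difference the adjusted p alone. Errors are standard errors unless named SD. Ratios of FPKM were tested by exact permutation within sex. The test was tried on simulated data with known changes first. Alternatives were DESeq2 1.42.0 (Wald test, or its size factors in edgeR), limma 3.58.1 on log2(FPKM + 1) or log2(FPKM + 0.1), no filter on low counts, no fold threshold, 1 fit over all 34 libraries with and without a term for the western blot list, libraries on or off the list alone, leaving out each library or the 3 whose Xist went against the label, a replicate block, and other genes or counts in the ratios. Replicate numbers were shared between groups by name only. Of 49 pairs of same-numbered libraries, 11 had deviations correlated above 0.1 (r -0.165 to 0.564).

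All 10 members are named. Of 42 other T cell genes, up to 3 in each direction with the smallest adjusted p were named for each comparison over both sexes, and all ligands. Of 11 lists of other cells (NK cell, B cell, dendritic cell, type 2 innate lymphoid cell, thymocyte, lymphoid stroma, macrophage, neutrophil, pan-leukocyte, erythroid and lung tissue), up to 2 called genes in each comparison were named. The 10 genes most like the CD3 genes were taken by Pearson r, of which 1 is not reported here. Members and lists were chosen with earlier results of these data known.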

Additional observations from a re-analysis of the deposited data

Results flagged for a closer look

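For 2 members the female and male Cav1-RC libraries lay on opposite sides between hypoxia and normoxia, a difference that did not pass the test. Of 16014 other genes with a mean of at least 1 CPM, 0.699% separated in opposite directions in the same way. Each female hypoxic library was above each female normoxic one, and each male hypoxic library below each male normoxic one. For Cd4 the log2 fold change was 0.42 ± 0.29 in females and -0.51 ± 0.19 in males, a difference of 0.95 ± 0.31. For Lck it was 0.14 ± 0.22 and -0.30 ± 0.12, a difference of 0.46 ± 0.21. By edgeR's quasi-likelihood test the difference did not pass for either gene (adjusted p = 0.736 for both). The males in normoxia include the 2 libraries whose Xist goes against their label, and the females in normoxia are 2 libraries.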

How the results depend on the processing

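Counts of members called changed with the tool, the fold threshold and the libraries used. With limma on log2(FPKM + 1), filtered or not, over both sexes 0 members were called in Cav1-KO against Control in normoxia and 0 in hypoxia, 1 in hypoxic Cav1-RC against Cav1-KO, and 1 for hypoxia in Cav1-KO. Within a sex it called 1 in male Cav1-KO against Control in normoxia, 0 in male Cav1-RC against Cav1-KO in normoxia, 2 (female) and 1 (male) for these genotypes in hypoxia, and 1 (female) and 0 (male) for hypoxia in Cav1-KO. This pseudocount shrinks folds of genes near 1 FPKM. With 0.1 the counts were 3 (female Cav1-RC against Cav1-KO, hypoxia) and 1 (female Cav1-KO, hypoxia), and the others stayed within 1.5 times.

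With no fold threshold the counts over both sexes were 9 and 4 in normoxia (Cav1-KO against Control, Cav1-RC against Cav1-KO), and 2 and 4 for hypoxia in Control and Cav1-KO. Among males they were 7 and 7 for the first pair, 4 in hypoxic Cav1-RC against Cav1-KO, and 1 and 2 for hypoxia in Control and Cav1-RC. In Cav1-KO against Control, DESeq2 gave 2 (female, normoxia, 536 of all genes called), 2 (female, hypoxia, 1530) and 3 (male, hypoxia, 474). The edgeR test called 21, 136 and 165 of all genes there. The counts of members were also 2, 2 and 3 with 1 fit over all 34 libraries, which left 1 in male Cav1-RC against Cav1-KO in normoxia. Without the filter on low counts these were 2, 1 and 3, and Cd8b1 alone differed between the sexes in Cav1-RC against Cav1-KO in normoxia. With the list term they were 1, 1 (Cd3g in place of Cd3e and Cd8b1) and 3, with 4 in hypoxic males of Cav1-RC against Cav1-KO, 1 in each sex for hypoxia in Control (Ccr7 in females, Lck in males), and 0 in Cav1-KO in females, males and both. Off the list 1 was called in female Cav1-KO against Control and 1 in Cav1-RC against Cav1-KO over both sexes in normoxia, and on it 1 in Cav1-KO against Control in hypoxia. Without the 3 libraries of contrary Xist, 6 were called in male Cav1-RC against Cav1-KO in normoxia and 2 in male Cav1-KO against Control in hypoxia, and the ratio of Cd8b1 to Cd4 passed in Cav1-KO against Control in normoxia (0.57 as before, with none of the 3 libraries in it and only the adjustment over the ratio tests changed) and Cav1-RC against Control in hypoxia (0.91). The replicate block raised female Cav1-KO hypoxia against normoxia from 2 to 5 called and moved no other count by over 1.5 times. Without the block 13.3% of all genes were called there, and the share with it is not reported here, so this rise has no background. Every same-numbered pair was above 0.1 in 1 of 18 comparisons.

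With Cd8a for Cd8b1 the ratio to Cd4 was 0.15, 0.20 and 0.02 where it had passed, and with the mean of the CD3 genes for Cd3e the ratio of Ccr7 was -0.01, 0.37 and -0.90. DESeq2 size factors and counts with 0.5 added left every count and ratio call as it was. The cause of these shifts was not tested, except for this adjustment and that fewer libraries allow fewer permutations.

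Leaving out 1 library gave, in Cav1-KO against Control in normoxia, 0 to 1 members called in females (1 without Control replicate 1), 3 to 7 in males (7 without Control replicate 3) and 2 to 5 over both (2 without female Cav1-KO replicate 1). In hypoxia the ranges were 0 to 3 (3 without female Control replicate 1), 0 to 2 (2 without male Control replicate 2) and 2 to 3. Cav1-RC against Cav1-KO gave 0 to 1 over both sexes in normoxia, 2 to 7 in hypoxic females (3 without Cav1-RC replicate 2, 2 without Cav1-KO replicate 1 or 2) and 3 to 6 over both. Male Cav1-RC against Control in hypoxia and male hypoxia against normoxia in Control gave 0 to 1 (1 without hypoxic Control replicate 1), and Control over both sexes 0 to 1. Hypoxia in female Cav1-KO gave 0 to 4 (0 without normoxic replicate 1, 1 without normoxic replicate 2 or hypoxic replicate 1 or 2, 4 without hypoxic replicate 3). Sex differences were 0 to 2 in Cav1-RC against Cav1-KO in normoxia and for hypoxia in Cav1-RC (2 without female Cav1-RC normoxia replicate 2, which leaves 1 library there), and 0 to 1 in Cav1-RC against Control in hypoxia (1 without female Control replicate 1).

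The ratio of Cd8b1 to Cd4 ranged from 0.39 to 0.76 (Cav1-KO against Control, normoxia, call gained without female Control replicate 3 or female Cav1-KO replicate 2), -1.0 to -0.62 (hypoxia, call lost without female Control replicate 2 or male Cav1-KO replicate 1 or 3), 0.54 to 0.91 (Cav1-RC against Control, hypoxia, call gained without male Control replicate 2) and -1.46 to -1.09 (hypoxia in Cav1-KO, call lost without female normoxia replicate 1). That of Ccr7 to Cd3e ranged from -0.75 to -0.31 (Cav1-RC against Cav1-KO, normoxia, call gained without female Cav1-KO replicate 1), -0.38 to -0.18 (Cav1-RC against Control, hypoxia, call gained without female Control replicate 1) and 0.38 to 0.82 (hypoxia in Cav1-KO), and the last lost its call in 9 of these fits. Of 1940 values of single genes under these settings, 1872 stayed on their side of the threshold, 16 gained a call, 52 lost one and none changed sign among the called. Cd3e rested on 9 to 177 counts, and how small a difference could be detected at this depth was not tested.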

Other observations

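The library of uncertain group entered no comparison. Its label gives it as possibly female Cav1-KO normoxia, and its animal number also stands on the western blot list. The list gives the animal of that number as a female Cav1-KO mouse in normoxia, the same group as the label. No grouped library of Cav1-KO normoxia is on the list. With 30930450 counts, the library of uncertain group had 0.0828 FPKM of Cd3e and 0.319 of Cd8b1, both below the lowest of the 34 grouped libraries. Its Cd3g (0.61 FPKM) and Cd8a (0.799) were also below that range. Cd3d was at 1.84, Cd4 at 0.905, Lck at 2.48, Zap70 at 3.26, Il7r at 2.35 and Ccr7 at 1.45, each within the range of the grouped libraries. In the grouped Cav1-KO libraries, Cd3e was at 0.475 to 1.03 FPKM in normoxia and 0.12 to 0.499 in hypoxia. Cd8b1 was at 1.94 to 4.58 in normoxia and 0.523 to 1.08 in hypoxia. What part the list has in the values of this 1 library was not tested.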
